A study of Homo sapiens with 4 samples.

Results

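The mRNAs of the translation initiation and elongation factors were examined in RNA bound to Flag-tagged QKI7 and in input RNA from U2OS cells, a human osteosarcoma line. The members are all rows of the expression table whose gene symbol begins with EIF or EEF followed by a digit, 72 of 26830 genes. The rule used only symbols, so it also takes in kinases and inhibitors of the factors, antisense RNAs, a readthrough transcript and pseudogenes. The Flag-RIP group (n = 2 libraries) holds RNA recovered from ultraviolet cross-linked, sonicated lysates with an antibody to Flag, and the input group (n = 2 libraries) holds RNA of such lysates with no antibody step. Cells of both groups carried the lentiviral construct for Flag-QKI7 and had been selected as GFP-positive, so both groups contain the overexpressed protein. A precipitation without the tagged protein was not analysed here. The labels number the replicates 1 and 2 without saying whether they were separate cultures, and the p-values therefore cover no more than the spread of these libraries, which may be technical.

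QKI is an RNA-binding protein of the STAR family that recognises ACUAAC-like sequences and acts in splicing, stability and translation of its target RNAs. Translation begins when eIF2 brings the initiator tRNA to the small ribosomal subunit, eIF3 holds the initiation complex together, and the eIF4 factors recruit it to the capped end of the mRNA. The eEF1 factors then deliver aminoacyl-tRNAs and eEF2 moves the ribosome along. Many elongation factor mRNAs and some initiation factor mRNAs are 5′ TOP mRNAs, meaning that they begin with a C followed by a run of pyrimidines through which mTOR signalling controls their translation.

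The start sites are shown first because the TOP class is the sequence feature by which the factors are usually grouped. Each line gives 10 bases before and 20 bases from the annotated RefSeq start (GRCh38.p14), 5′ to 3′. EEF1B2 has another annotated start (chr2:206159599-206159628, plus strand) without a pyrimidine run, and the start that holds the run is printed. Capitals mark an unbroken run of at least 5 pyrimidines that opens with C at the first transcribed base. EEF1A1 delivers tRNAs, EEF1B2 and EEF1G belong to its exchange factor, EEF2 is the translocase, EIF3F and EIF3K are eIF3 subunits, EIF4B assists the eIF4A helicase, EIF2S3 is the gamma subunit of eIF2, and EIF2AK4 (GCN2) is a kinase that inhibits eIF2.
EEF1A1 (chr6:73521013-73521042, minus strand): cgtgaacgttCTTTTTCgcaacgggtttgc
EEF1B2 (chr2:206159885-206159914, plus strand): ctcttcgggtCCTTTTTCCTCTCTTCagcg
EEF1G (chr11:62573872-62573901, minus strand): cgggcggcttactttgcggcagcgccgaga
EEF2 (chr19:3985444-3985473, minus strand): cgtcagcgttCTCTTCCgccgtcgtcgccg
EIF3F (chr11:7987327-7987356, plus strand): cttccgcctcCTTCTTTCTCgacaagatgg
EIF3K (chr19:38619178-38619207, plus strand): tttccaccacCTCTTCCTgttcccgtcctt
EIF4B (chr12:53006446-53006475, plus strand): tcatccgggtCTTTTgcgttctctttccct
EIF2S3 (chrX:24054946-24054975, plus strand): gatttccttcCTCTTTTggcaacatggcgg
EIF2AK4 (chr15:39934105-39934134, plus strand): gcccgtccccagcgcggagccccgccccgc

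Values are TPM, a length-normalised share of each library that keeps no read depth, so no counting interval can be given. In these bulk libraries, fewer cells with a transcript and less of it per cell cannot be told apart. RUNX2, SPARC, VIM and COL1A1, markers of the osteoblast and mesenchymal lineages, were measured in every library, while SP7, ALPL and COL1A2 stayed at or below 0.37 TPM, BGLAP reached 2.62 TPM in Flag-RIP replicate 1 alone, and 5 blood markers at or below 0.26 TPM. Of the epithelial markers, KRT8 and KRT18 were at 19.98 TPM or more and EPCAM, CDH1 and KRT19 at 0.58 TPM or less. The typical gene took a larger TPM in Flag-RIP, with a median ratio of mean TPM of 3.31 over the tested genes. Libraries were therefore scaled so that the median gene had the same level in each, and changes below are log2 changes of Flag-RIP minus input relative to that median gene, on the log2(scaled TPM + 1) scale, unless said otherwise. The shift of all tested genes was 1.2045 (log2) as deposited, 0.51 without the 20 most abundant rows and -0.68 when libraries were scaled to the ERCC spike-ins, so the sign of a typical factor depends on the scaling. The ERCC rows took 18.9% and 25.6% of the TPM in Flag-RIP and 2.78% and 3.89% in input. Genes at 1 TPM or more numbered 11970 and 12098 in Flag-RIP and 6117 and 7803 in input, so many input values were low.

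Of the 72 members, 59 had a mean TPM of at least 1 and were tested among 10415 genes. Relative to the median gene, Flag-RIP held 8 members at higher and 25 at lower levels (limma, adjusted p under 0.05), against 21.5% and 23.7% of all tested genes, and 26 did not pass. The members' shares were 13.6% higher and 42.4% lower. After scaling, both Flag-RIP values lay above both input values in 16 members and below both in 35, against 40.1% and 39.6% of all tested genes. Of the members' calls, 1 higher and 7 lower had a log2 change of at least 1, against 3.65% and 5.3% of all tested genes. Adding 1 before the log shrinks the changes of low genes, so this is no count of 2-fold changes in scaled TPM. EIF3C and EIF2B2, both called but not in this count, had ratios of scaled TPM of 2.431 and 0.489. The median change of the tested members was -0.35, against 0.0068 over all tested genes. As deposited 51 members were higher and 0 lower, against 92.3% and 0.317% of all tested genes, and 53 of the 59 had an unadjusted p under 0.05 there (limma), as did 92.8% of all tested genes. Before scaling, both Flag-RIP values lay above both input values in 96.7% of all tested genes. In plain TPM the ratio of mean values ran from 1.04 for EIF4EBP1 to 9.68 for EIF2AK1, with a median of 2.45 over the tested members.

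Every call rests on few libraries. Without Flag-RIP replicate 1 none of the 33 calls passed (limma adjusted p from 0.0502 to 0.185), although all 33 kept their direction, and over all genes 784 higher and 136 lower calls were left. Without input replicate 1, 9 of the 33 passed, without Flag-RIP replicate 2, 24, and without input replicate 2, 28. Of the 33, 25 passed in the same direction with spike-in scaling, 24 with the replicate block, 23 with no filter, 21 with quantile normalization, 21 centred after the log, 21 at a mean of 5 TPM or more and 15 without the 20 most abundant rows. In each of the 4 fits that left out 1 library, all 33 kept their direction. EIF2B2, EIF2B4, EIF3F, EIF3G, EIF3I, EIF3K, EIF4EBP1, EIF6 and EEF1B2 passed in 3 of these 4 fits, and no member passed in all 4. Of the tested members, 9 had an input mean under 1 TPM and reached the filter through their Flag-RIP values, among them EIF3C, EIF2AK2 and EEF1E1-BLOC1S5 of the 8 higher ones. Among all tested genes, 3386 of 10415 had an input mean under 1 TPM. The shares of all tested genes and the median gene thus rest partly on genes that reached the filter through Flag-RIP. The part of this in the contrast with the members was not tested.

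**Figure D1:**
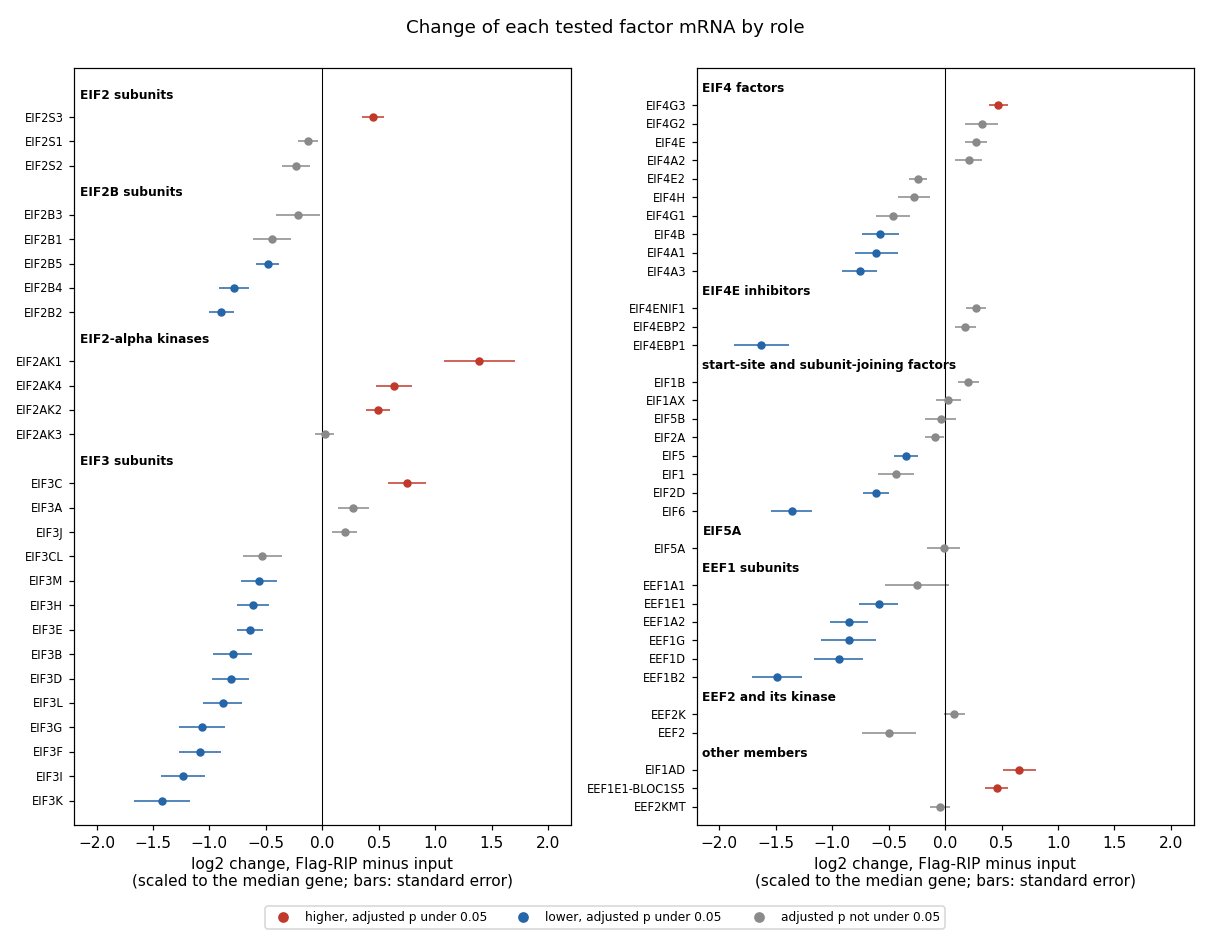
Log2 change of each of the 59 tested factor mRNAs, Flag-RIP minus input, scaled to the median gene (points, horizontal axis) with its standard error (bars), ordered by role down the page. The eIF2-alpha kinases lie at or right of 0 and most eIF3 and eEF1 subunits left of it on this scale; as deposited, all of the lower members had changes above 0.

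Of the 4 kinases that phosphorylate eIF2, 3 were higher in Flag-RIP relative to the median gene (EIF2AK1, EIF2AK2 and EIF2AK4), and the group median was 0.56. Among all tested genes 21.5% were higher. EIF2AK2 and EIF2AK3 had input means of 0.87 and 0.83 TPM and reached the filter through their Flag-RIP values, so neither the count nor the median supports a difference of the group from other genes. EIF2AK1 (HRI), the kinase that responds to haem and mitochondrial stress, had 95.6 and 45.8 TPM in Flag-RIP and 5.89 and 8.71 TPM in input. Both Flag-RIP libraries lay above both inputs, as in 96.7% of all tested genes before scaling, and replicate 1 lay well above replicate 2. The means were 70.7 ± 35.2 TPM in Flag-RIP and 7.30 ± 1.99 TPM in input (SD, n = 2 each). Its change was 1.39 (SE 0.31, limma adjusted p = 0.0209). It was 0.93 without Flag-RIP replicate 1 (limma adjusted p = 0.0502), 1.86 without Flag-RIP replicate 2 (0.021) and 1.43 without input replicate 1 (0.0538).

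EIF2AK4 (GCN2), the sensor of uncharged tRNAs, had 22.8 and 15.6 TPM in Flag-RIP and 2.86 and 4.09 TPM in input. Both deposited Flag-RIP values lay above both inputs, as in 96.7% of all tested genes. The change of EIF2AK4 was 0.63 (SE 0.16, limma adjusted p = 0.0287). EIF2AK2 (PKR), the sensor of double-stranded RNA, had 5.31 and 4.10 TPM in Flag-RIP and 0.61 and 1.12 TPM in input, a change of 0.49 (SE 0.11, limma adjusted p = 0.0192). EIF2AK3 (PERK), the kinase of the endoplasmic reticulum, had 2.81 and 2.75 TPM in Flag-RIP and 0.65 and 1.00 TPM in input, with a change of 0.02 (SE 0.08, limma adjusted p = 0.847). The difference between PERK and the other 3 kinases was not tested. Scaled to the spike-ins, EIF2AK1 had 0.45, EIF2AK2 -0.15 and EIF2AK4 -0.24, and none of the 3 passed. The call of EIF2AK4 was lost without Flag-RIP replicate 1 (0.43), input replicate 1 (0.69) or input replicate 2 (0.58), and that of EIF2AK2 without Flag-RIP replicate 1 (0.40) or input replicate 1 (0.43). EIF2AK1 spans chromosome 7 from 6022247 to 6059175 (GRCh38.p14), where AIMP2, ANKRD61, RN7SL851P and RNU6-218P overlap its annotated span. RN7SL851P and RNU6-218P are named as copies of the 7SL and U6 noncoding RNAs, and their part in the reads of EIF2AK1 was not tested. Since the strand setting is not stated, reads of overlapping genes may be mixed.

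Of the 3 subunits of eIF2, 1 was higher (33.3%, against 21.5% of all tested genes) and the other 2 did not pass. The differences between the subunits were not tested in the fit. EIF2S3, the GTP-binding gamma subunit, had 11.8 and 10.6 TPM in Flag-RIP and 1.74 and 3.02 TPM in input, and was higher relative to the median gene by 0.45 (SE 0.10, limma adjusted p = 0.0187). EIF2S1, the alpha subunit that the kinases phosphorylate, had 9.04 and 8.22 TPM in Flag-RIP and 2.32 and 3.47 TPM in input, a change of -0.12 that did not pass. EIF2S2, the beta subunit, had 13.9 and 15.4 TPM in Flag-RIP and 4.35 and 6.24 TPM in input, a change of -0.23 that did not pass. The ratio of EIF2S3 to EIF2S1 within a library, which a single factor per library does not alter, was 1.31 and 1.29 in Flag-RIP and 0.75 and 0.87 in input, without overlap, a pair picked after its values were seen. The EIF2S3 call was lost without Flag-RIP replicate 1 (0.42), Flag-RIP replicate 2 (0.47) or input replicate 1 (0.39), and scaled to the spike-ins its change was -0.38.

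The 5 subunits of eIF2B, the exchange factor that reloads eIF2 with GTP, all had changes below 0, and 3 were lower. That is 60% lower and 0% higher, against 23.7% and 21.5% of all tested genes. EIF2B2 fell by 0.89 (SE 0.11, limma adjusted p = 0.00962), with 9.16 and 8.27 TPM in Flag-RIP and 4.54 and 6.13 TPM in input. EIF2B4 fell by 0.78 and EIF2B5, the catalytic subunit, by 0.49 (limma adjusted p = 0.012 and 0.0164). EIF2B1 had -0.45 and EIF2B3 -0.21, and neither passed. The median of the group was -0.49, and relative to the median of all tested genes it lay between -0.66 and -0.29 under the scalings, pseudocounts and filters tried, while its own sign was above 0 as deposited (0.91). Without Flag-RIP replicate 1, EIF2B2, EIF2B4 and EIF2B5 had -0.91, -0.68 and -0.45 and did not pass. Without input replicate 1, EIF2B5 had -0.43 and did not pass.

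**Figure D2:**
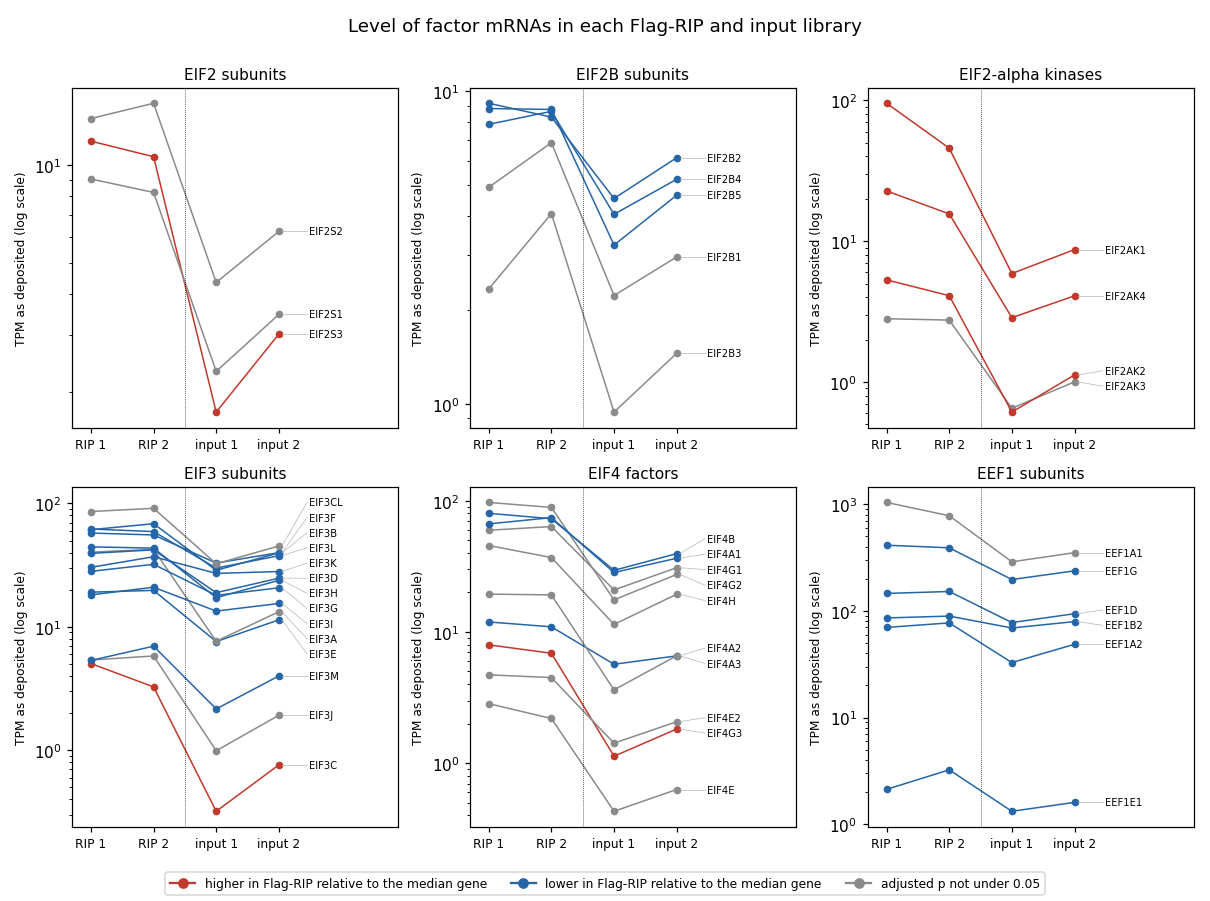
TPM as deposited (vertical axis, log scale) of the tested members of 6 role groups in the 2 Flag-RIP and the 2 input libraries (horizontal axis), with a line per gene; red and blue mark genes higher and lower than the median gene on the scaled values, and grey those that did not pass. In each panel the levels are higher in Flag-RIP than in input, with the ratio of mean TPM running from 1.18 for EEF1B2 to 9.68 for EIF2AK1, and the deposited TPM of the blue genes was higher in Flag-RIP than in input.

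The changes of the subunits of eIF3, the largest initiation factor, ran from -1.42 to 0.75. Of 14 rows, all tested, 10 were lower relative to the median gene, 1 was higher and 3 did not pass, with a median of -0.72. The shares were 71.4% lower and 7.14% higher, against 23.7% and 21.5% of all tested genes. Among all tested genes with a mean TPM of 20 or more, 54.1% were lower. The largest decreases were in EIF3K and EIF3I. EIF3K had 30.4 and 37.0 TPM in Flag-RIP and 27.1 and 28.1 TPM in input, so its TPM hardly differed while that of the median gene was 3.31 times higher in Flag-RIP, and it fell by 1.42 (SE 0.25, limma adjusted p = 0.0127). EIF3I had 18.2 and 20.9 TPM in Flag-RIP and 13.4 and 15.5 TPM in input, and fell by 1.24 (SE 0.20, limma adjusted p = 0.0108). EIF3F fell by 1.08, EIF3G, an RNA-binding subunit, by 1.07, EIF3L by 0.88, EIF3D, which can bind the cap of some mRNAs, by 0.81, and EIF3B, a scaffold subunit, by 0.79. EIF3E fell by 0.64, EIF3H by 0.61 and EIF3M by 0.56. The limma adjusted p-values of these 10 subunits ran from 0.0108 to 0.0364. With quantile normalization EIF3F, EIF3G, EIF3I and EIF3K of the 10 passed (-0.48, -0.61, -0.87 and -0.90), and EIF3B, EIF3D, EIF3E, EIF3H, EIF3L and EIF3M did not (limma adjusted p from 0.0534 to 0.649). With the replicate block EIF3B and EIF3H did not pass (limma adjusted p = 0.063 and 0.0727).

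EIF3A, the largest subunit and a scaffold of the complex, did not pass. It had 40.3 and 42.5 TPM in Flag-RIP and 7.64 and 13.3 TPM in input, with a change of 0.28 (SE 0.14, limma adjusted p = 0.154). EIF3J, a loosely bound subunit, had 5.38 and 5.81 TPM in Flag-RIP and 0.99 and 1.92 TPM in input, a change of 0.20 that did not pass. In both, each Flag-RIP value lay above each input value after scaling, as it did for 40.1% of all tested genes. The ratio of EIF3A to EIF3K within a library was 1.33 and 1.15 in Flag-RIP and 0.28 and 0.47 in input, 3.39 times higher in Flag-RIP on the geometric mean. The ratio of EIF3A to EIF3I was 2.22 and 2.03 in Flag-RIP and 0.57 and 0.86 in input. In both ratios the Flag-RIP libraries lay above the inputs. These pairs were picked after their values were seen.

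The rows of EIF3C and EIF3CL, near-identical copies on chromosome 16 (28688558 to 28735730 and 28379581 to 28426418), must be read together. EIF3C had 5.04 and 3.26 TPM in Flag-RIP and 0.32 and 0.76 TPM in input and was called higher, at 0.75 (SE 0.16, limma adjusted p = 0.0195). EIF3CL had 86.1 and 91.4 TPM in Flag-RIP and 32.4 and 45.2 TPM in input, with -0.53 (limma adjusted p = 0.054). Their sum was 91.1 and 94.7 TPM in Flag-RIP and 32.8 and 46.0 TPM in input, with a change of -0.48 that did not pass (limma adjusted p = 0.0654). EIF3C took 5.53% and 3.44% of that sum in Flag-RIP and 0.98% and 1.65% in input, and how RSEM divides reads between such copies is uncertain. With the sum as 1 row, 7 members were higher and 25 lower. The eIF3 median lay below that of all tested genes under each of the scalings, pseudocounts and filters tried, by 0.26 with quantile normalization and up to 0.99 with spike-in scaling, and it was itself above 0 as deposited (0.90). Without Flag-RIP replicate 1 no eIF3 subunit passed, with changes between -1.24 (EIF3K) and 0.57 (EIF3C), EIF3M standing at -0.37. EIF3H and EIF3L were lost without Flag-RIP replicate 2 (-0.64 and -0.90), and EIF3M without input replicate 2 (-0.46). Without input replicate 1, EIF3F, EIF3G, EIF3I and EIF3K passed, at -0.90, -0.85, -1.02 and -1.13.

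**Figure D3:**
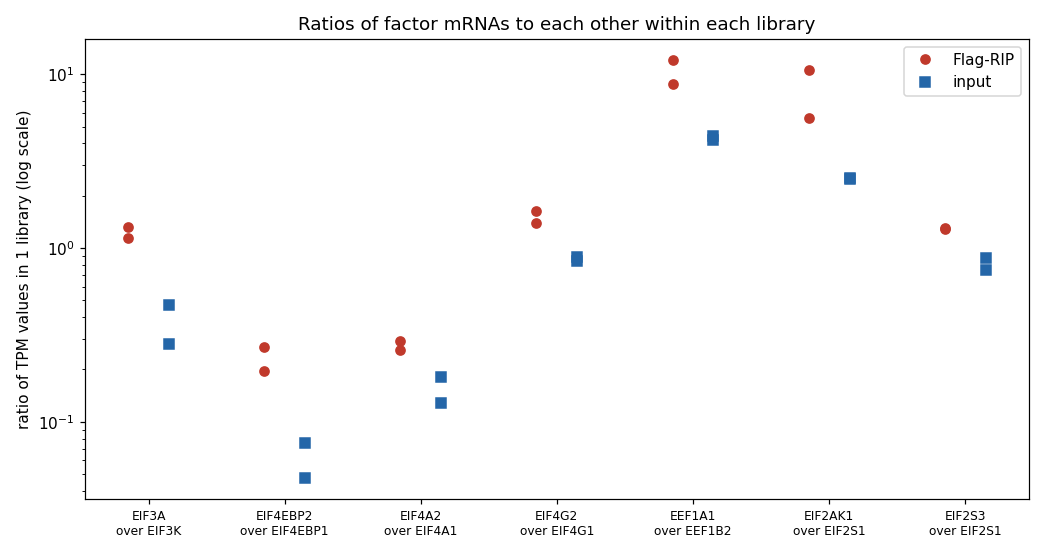
Ratio of the TPM of 2 factor mRNAs within 1 library (vertical axis, log scale) for 7 pairs (horizontal axis), in the 2 Flag-RIP libraries (circles) and the 2 input libraries (squares). In each pair shown both Flag-RIP ratios lie above both input ratios, such as 1.33 and 1.15 against 0.28 and 0.47 for EIF3A over EIF3K; a single factor per library does not alter these ratios, and the pairs were picked after their values were seen.

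The eIF4 factors, which bind the cap, unwind the 5′ end and bridge to eIF3, had changes from -0.76 to 0.47. Of 12 rows 10 were tested, and their median change was -0.26. Of the 10, 3 were lower (30%, against 23.7% of all tested genes), 1 was higher (10%, against 21.5%) and 6 did not pass. EIF4A3, a helicase paralog that serves in the exon junction complex, fell by 0.76 (SE 0.16, limma adjusted p = 0.0175), and the initiation helicase EIF4A1 fell by 0.61 (SE 0.19, limma adjusted p = 0.0476). EIF4A1 had 66.6 and 74.3 TPM in Flag-RIP and 28.4 and 36.4 TPM in input. Its close paralog EIF4A2 had 19.4 and 19.2 TPM in Flag-RIP and 3.62 and 6.58 TPM in input, a change of 0.21 that did not pass. The ratio of EIF4A2 to EIF4A1 was 0.29 and 0.26 in Flag-RIP and 0.13 and 0.18 in input, without overlap. Like every ratio pair given here, this pair was picked after its values were seen and is led by the member of the larger change. How often other pairs of genes are without overlap was not counted, so these ratios describe the values and test nothing. EIF4A1, EIF4A2, EIF4G1 and EIF4G2 host small nucleolar RNAs within their spans, and how reads of these were treated is not stated.

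Of the scaffolds of the eIF4G family 1 passed. EIF4G3 was higher relative to the median gene by 0.47 (SE 0.09, limma adjusted p = 0.0131), with 7.97 and 6.88 TPM in Flag-RIP and 1.13 and 1.82 TPM in input. EIF4G2 (DAP5), a relative of eIF4G that does not bind the cap-binding protein, had 97.0 and 88.9 TPM in Flag-RIP and 17.6 and 27.4 TPM in input, a change of 0.32 (limma adjusted p = 0.121). EIF4G2 passed as higher with quantile normalization (0.96, limma adjusted p = 0.0112), centred after the log (0.71, 0.0149), without the 20 most abundant rows (0.85, 0.00101), at a mean of 5 TPM or more (0.54, 0.0332) and without a variance trend (0.32, 0.0356). Without the 20 most abundant rows the median of all tested genes was itself 0.51. EIF4G2 lay 0.34 above that median, against 0.32 in the main fit, where it did not pass. Scaled to the spike-ins, EIF4G3 had -0.28 and EIF4G2 -0.65, and neither passed. EIF4G1, the main scaffold, had 59.5 and 63.5 TPM in Flag-RIP and 20.9 and 30.9 TPM in input, with -0.46 (limma adjusted p = 0.0583). The ratio of EIF4G2 to EIF4G1 was 1.63 and 1.40 in Flag-RIP and 0.84 and 0.89 in input. This pair was picked after its values were seen. EIF4B fell by 0.58 (SE 0.16, limma adjusted p = 0.0387), with 80.1 and 72.9 TPM in Flag-RIP and 29.5 and 39.5 TPM in input.

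The cap-binding protein EIF4E had 2.84 and 2.19 TPM in Flag-RIP and 0.43 and 0.63 TPM in input, with a change of 0.27 (limma adjusted p = 0.073). EIF4E2, EIF4H and EIF4E had changes between -0.28 and 0.27. Relative to the median of all tested genes the eIF4 median was 0.02 as deposited, 0.11 with quantile normalization and -0.42 with spike-in scaling, so the direction of the group was not stable. The calls of EIF4A1, EIF4A3, EIF4B and EIF4G3 were lost without Flag-RIP replicate 1 (-0.48, -0.77, -0.59 and 0.43) and without input replicate 1 (-0.47, -0.56, -0.46 and 0.46). Those of EIF4A1, EIF4A3 and EIF4B were also lost without Flag-RIP replicate 2 (-0.73, -0.75 and -0.56).

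The inhibitors that sequester eIF4E held the largest decrease of any member. EIF4EBP1 (4E-BP1), which mTOR inactivates by phosphorylation, had 23.4 and 26.0 TPM in Flag-RIP and 23.8 and 23.9 TPM in input, so that its groups overlapped as deposited. Relative to the median gene it fell by 1.63 (SE 0.24, limma adjusted p = 0.0104), and its change was 0.05 as deposited. Its paralog EIF4EBP2 had 6.32 and 5.12 TPM in Flag-RIP and 1.13 and 1.81 TPM in input, a change of 0.18 past no threshold. The ratio of EIF4EBP2 to EIF4EBP1, picked after its values were seen, was 0.27 and 0.20 in Flag-RIP and 0.05 and 0.08 in input. EIF4ENIF1 (4E-T), which carries eIF4E into the nucleus and processing bodies, had 0.28 (limma adjusted p = 0.0546), and EIF4EBP3 stayed at or below 0.81 TPM and was not tested. Without Flag-RIP replicate 1 EIF4EBP1 had -1.51, which missed the threshold (limma adjusted p = 0.0654).

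Among the factors of start-site selection and subunit joining, 3 of 8 tested members were lower (37.5%, against 23.7% of all tested genes) and 0 higher (against 21.5%), and 4 of the 8 had an unadjusted p under 0.05, as did 55.3% of all tested genes (limma). EIF6, which keeps the large subunit from joining too early, fell by 1.36 (SE 0.18, limma adjusted p = 0.00962), with 12.4 and 14.6 TPM in Flag-RIP and 10.1 and 12.2 TPM in input. Its deposited values barely separated the groups. EIF2D, a factor of non-canonical initiation, fell by 0.61 and EIF5, the GTPase activator of eIF2, by 0.35 (limma adjusted p = 0.0139 and 0.0444). EIF1, a guardian of start-codon choice, had 79.7 and 66.4 TPM in Flag-RIP and 24.8 and 34.9 TPM in input, with -0.43 (limma adjusted p = 0.0761), and EIF1B, EIF1AX, EIF2A and EIF5B ran from -0.09 to 0.20. EIF5A, the hypusinated factor that relieves stalled ribosomes, had 86.0 and 80.9 TPM in Flag-RIP and 20.6 and 30.4 TPM in input, a change of -0.01 that did not pass. Without Flag-RIP replicate 1, EIF6, EIF2D and EIF5 had -1.21, -0.63 and -0.24 and did not pass. EIF2D was lost without Flag-RIP replicate 2 (-0.60) and without input replicate 1 (-0.50), and EIF5 without input replicate 1 (-0.35) or input replicate 2 (-0.35).

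The elongation factors made up most of the members' RNA. The 6 eEF1 rows took 49.3% and 47.7% of the members' summed TPM in Flag-RIP and 51.5% and 49.1% in input. EEF1A1, which delivers aminoacyl-tRNAs, was the most abundant member, with 1039 and 779.9 TPM in Flag-RIP and 288.3 and 351.1 TPM in input. It had a change of -0.25 (SE 0.29, limma adjusted p = 0.502) and its scaled values overlapped between the groups. The subunits of its exchange factor were lower. EEF1B2 had 85.8 and 89.3 TPM in Flag-RIP and 69.1 and 79.3 TPM in input and fell by 1.49 (SE 0.22, limma adjusted p = 0.0101). EEF1D fell by 0.94 and EEF1G by 0.85 (limma adjusted p = 0.0217 and 0.0399), and EEF1G had 412.7 and 390.2 TPM in Flag-RIP and 196.7 and 237.3 TPM in input.

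EEF1A2, the muscle and neuron paralog of EEF1A1 that some tumours express, had 69.9 and 77.1 TPM in Flag-RIP and 32.7 and 48.6 TPM in input and fell by 0.85 (SE 0.17, limma adjusted p = 0.0153). EEF1E1, which despite its name is a scaffold protein of the tRNA synthetase complex, fell by 0.59 (limma adjusted p = 0.0417). The ratio of EEF1A1 to EEF1B2 was 12.1 and 8.73 in Flag-RIP and 4.17 and 4.43 in input. That of EEF1A1 to EEF1A2 was 14.9 and 10.1 in Flag-RIP and 8.81 and 7.23 in input. Both pairs were picked after their values were seen. EEF1A1 has many processed copies in the genome, so the division of its reads is uncertain. EEF2, the translocase, had 447.9 and 340.7 TPM in Flag-RIP and 140.5 and 192.0 TPM in input, with -0.50 (limma adjusted p = 0.138), and its kinase EEF2K had 0.08. The median of the eEF1 rows was -0.85, and relative to all tested genes it was -0.86 here, -0.38 as deposited and -0.04 with quantile normalization. It was above 0 as deposited (0.83). With quantile normalization EEF1A1 and EEF2 were higher, by 0.86 and 0.64 (limma adjusted p = 0.0153 and 0.048). Without Flag-RIP replicate 1, EEF1B2, EEF1D, EEF1G, EEF1A2 and EEF1E1 had -1.41, -0.86, -0.84, -0.74 and -0.38 and did not pass. EEF1D, EEF1G, EEF1A2 and EEF1E1 were lost without input replicate 1 (-0.76, -0.67, -0.82 and -0.45), and EEF1D and EEF1G without Flag-RIP replicate 2 (-1.02 and -0.86).

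**Figure D4:**
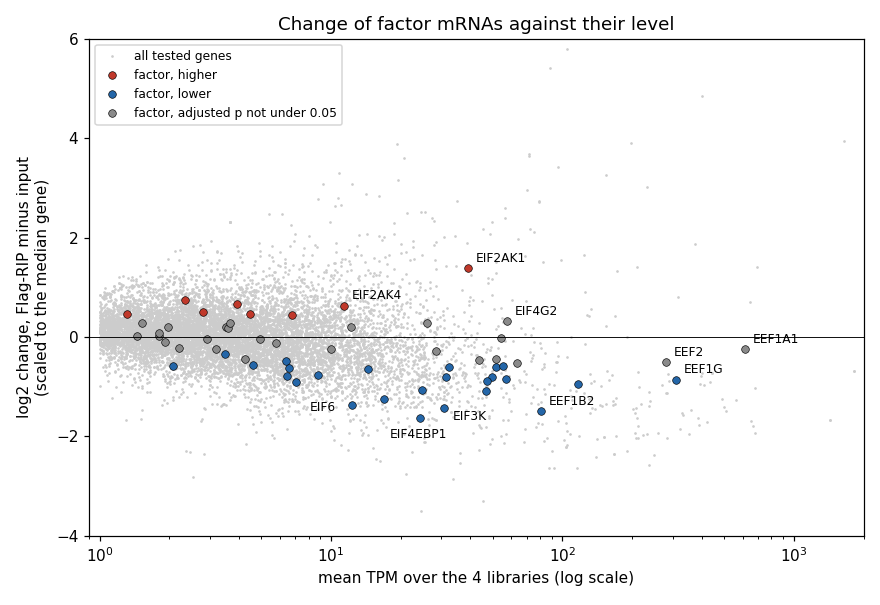
Log2 change relative to the median gene (vertical axis) against mean TPM over the 4 libraries (horizontal axis, log scale) for all tested genes (small grey points) and the 59 factors (large points, red higher, blue lower, grey not past the threshold); 11 genes outside the plotted range are not shown. The cloud of all genes bends downwards at high levels, and the factors at 20 TPM or more lie within it, with a median of -0.61 against -0.63 for all genes of that level; as deposited these factors had changes above 0.

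The level of a gene moved with its change, among the factors and among all genes. Over the 59 tested members the change correlated with log10 mean TPM at Pearson r = -0.43 (Spearman rho = -0.50), and over all 10415 tested genes at r = -0.27 (rho = -0.26). These are correlations across genes of the same libraries, the level enters both axes, and genes are not independent replicates. Of 24 members with a mean TPM of 20 or more, 14 were lower and 1 was higher, with a median of -0.61. Of all 745 tested genes of that level 54.1% were lower and 13.7% higher, with a median of -0.63, the share lower being near the 58.3% of the factors. At 5 to 20 TPM, 8 of 13 members were lower (median -0.61), against 33.9% of all tested genes of that level (median -0.13). At 1 to 5 TPM, 3 of 22 were lower and 5 higher (median 0.06), against 15.1% and 23.7% (median 0.08). The part of level in the factors' changes was not tested further. These level classes were chosen after the data were seen.

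The annotated span of a gene moved with its change as well. The change correlated with log10 span at r = 0.36 (rho = 0.36) over the members and at r = 0.20 (rho = 0.25) over 10262 tested genes with an annotated span. The 8 higher members had a median span of 52472 bases and the 25 lower ones 14516 bases. Spans include introns and are not the length of the mRNA.

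The TOP mRNAs among the factors were mostly lower relative to the median gene. Of 10 factors listed from background knowledge as TOP mRNAs 7 were lower (70%, against 23.7% of all tested genes) and 0 higher (against 21.5%). Their median was -0.63. In either direction, 7 of the 10 had an unadjusted p under 0.05 (limma), against 55.3% of all tested genes. EEF1A1 and EEF2 had changes of -0.25 and -0.50 and EIF3A one of 0.28, and none of these passed. The pyrimidine run marked in the start sequences was found at 1 or more starts of 12 of the 47 tested members with a start-sequence entry (25.5%). The share was 7.98% of 8073 tested genes with such an entry. Counted per single start, which is another unit because a gene can have several, it was 4.07% of 35116 entries. Tested members without an entry, among them EIF3G, EIF3L, EEF1A2 and EIF2AK1, were not searched. Only the transcribed strand was searched, since the run is read in the RNA. Of the 12, 7 were lower and 1 higher (median -0.57), and of the 35 without it 11 were lower and 6 higher (median -0.12). Over all tested genes with an entry, 32.5% of those with the run were lower (median -0.09), against 24.1% of those without it (median -0.0045). EIF2S3 and EIF4A2 carry the run and had changes of 0.45 and 0.21, while EEF1G lacks it at the annotated start and fell by 0.85. A pyrimidine run in this window is a description of the annotated start and no proof of a TOP mRNA. The TOP factors were also abundant, 9 of the 10 having a mean of 20 TPM or more over the 4 libraries. Of all tested genes of that level 54.1% were lower, and the part of level in the change of the TOP factors was not tested. As deposited all 10 had changes above 0. With quantile normalization EEF1B2 and EIF3F still passed as lower (-0.73 and -0.48), and EIF3E and EIF3H (-0.35 and -0.08) did not pass. EEF1D, EEF1G and EIF4B then had 0.08, 0.23 and 0.04, and EEF1A1 and EEF2 passed as higher (0.86 and 0.64). Without Flag-RIP replicate 1 the changes of the 7 lower ones ran from -1.41 (EEF1B2) to -0.57 (EIF3E).

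Of the remaining members, EIF1AD, a small protein related to eIF1A in sequence, was higher relative to the median gene by 0.66 (SE 0.15, limma adjusted p = 0.0207), with 8.22 and 5.36 TPM in Flag-RIP and 0.85 and 1.31 TPM in input. EEF1E1-BLOC1S5, a readthrough transcript that shares exons with EEF1E1, had 2.59 and 1.98 TPM in Flag-RIP and 0.28 and 0.42 TPM in input and a change of 0.46 (limma adjusted p = 0.0203). EEF1E1 itself was lower, and how reads were divided between the overlapping rows is uncertain. EEF2KMT, a methyltransferase of eEF2, had -0.05 and did not pass. The calls of EIF1AD and EEF1E1-BLOC1S5 were lost without Flag-RIP replicate 1 (0.46 and 0.38), without input replicate 1 (0.67 and 0.47) and without input replicate 2 (0.65 and 0.45). Under the filter lay 13 members: EIF4E1B, EIF4E3, EIF4EBP3, EIF5A2, EIF5AL1, EIF1AY, EEF1AKMT1, the pseudogenes EEF1DP3 and EIF3IP1, and the antisense or divergent RNAs EIF1AX-AS1, EIF1B-AS1, EIF2B5-AS1 and EIF3J-AS1. Their values are too low for a comparison, and EIF3J-AS1, at 1.32 and 1.45 TPM in Flag-RIP and 0.23 and 0.47 TPM in input, was the highest of them.

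Other genes of the translation pathway gave a background for the factors. Of 44 such genes listed, 38 were tested, of which 5 were higher (13.2%, against 21.5% of all tested genes) and 10 lower (26.3%, against 23.7%) relative to the median gene, with a median of -0.16. Of the 38, 8 had an input mean under 1 TPM and reached the filter through their Flag-RIP values. PPP1R15A (GADD34) and PPP1R15B (CReP), which bring a phosphatase to eIF2 and so oppose the kinases, were higher by 0.54 and 0.48 (limma adjusted p = 0.0125 and 0.0227). PPP1R15A had 16.6 and 15.9 TPM in Flag-RIP and 2.53 and 3.90 TPM in input. From the same list MKNK2, a kinase of eIF4E, fell by 0.44 and GCN1, an activator of GCN2, by 0.42 (limma adjusted p = 0.0267 and 0.0319). ATF4, the transcription factor translated when eIF2 is phosphorylated, had -0.11 and did not pass. METAP2, a methionine aminopeptidase, was higher by 0.49 (limma adjusted p = 0.0116). GSPT1 (eRF3a), a release factor, fell by 0.35 (limma adjusted p = 0.0335) and DHPS, which starts the hypusination of eIF5A, by 0.47 (limma adjusted p = 0.0492). TPT1, itself a TOP mRNA, fell by 0.97 (limma adjusted p = 0.0173). Among the mitochondrial factors TSFM fell by 0.93 and TUFM by 0.90, while GFM1, a mitochondrial translocase, was higher by 0.72 with an input mean of 0.69 TPM, under the filter's level of 1. PPP1R15B, MKNK2, GCN1, ATF4, TUFM and GFM1 were named after their values were seen, and the calls of the pathway genes were not recomputed without single libraries. As deposited 37 of the 38 were higher and 0 lower.

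**Figure D5:**
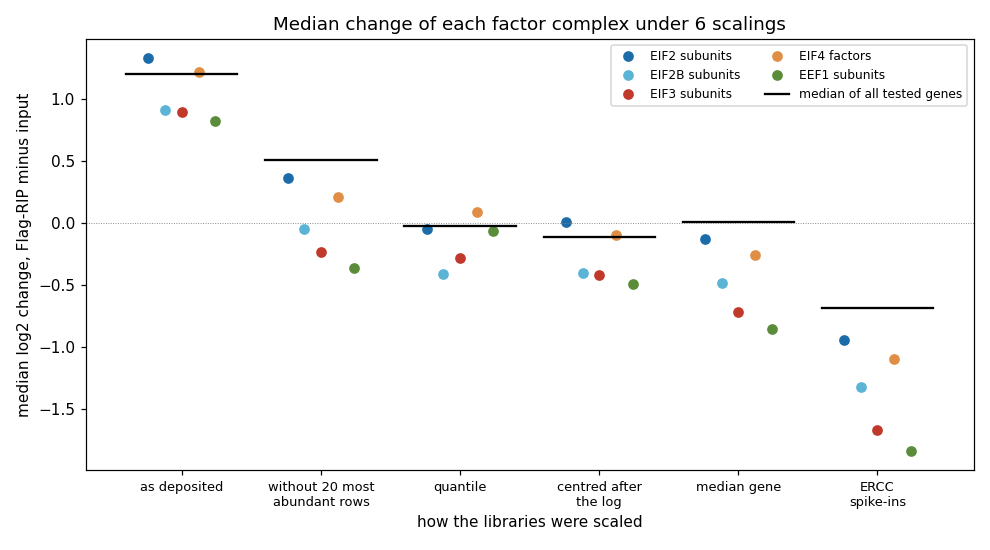
Median log2 change, Flag-RIP minus input (vertical axis), of the members of 5 complexes (points) under 6 ways of scaling the libraries (horizontal axis), with the median of all tested genes under the same scaling (black lines). The medians of eIF2B, eIF3 and eEF1 lie below the black line under all 6 scalings, eEF1 by only 0.04 with quantile normalization; eIF2 and eIF4 change sides, and as deposited all 5 medians are above 0.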

How the data were processed

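The authors deposited 1 table of TPM values, 1 column per library, with the ERCC spike-in rows included in each library's total. Alignment with STAR and quantification with RSEM (1.2.31) on GRCh38 are named per the submitters' processing notes. Annotation, filters and strandedness: not given in the sources used here. Because TPM keeps no depth, no count model was used.

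Spike-ins aside, every gene whose TPM averaged 1 or more across the 4 libraries was tested. Each library was divided by its median ratio to the gene-wise geometric mean (factors of 1.90 and 1.77 for Flag-RIP, 0.44 and 0.68 for input), 1 was added, and log2 values were fitted with limma (3.58.1, R 4.3.3; eBayes with a trend, residual df 2, prior df 3.23), two-sided, with Benjamini-Hochberg adjustment over all tested genes and a threshold of 0.05. Scaling before adding 1 differs from centring after the log, which understates the rise of low genes. Replicate deviations had an SD of 0.21 (Flag-RIP) and 0.16 (input) log2 units. The fit was tested on simulated data.

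Members and lists were chosen with earlier results of these data known. The naming rule covered members past the threshold, the most abundant and most extreme of each role, and 1 gene per pathway list. Members outside this rule were named as well, among them EIF2S1, EIF2B1, EIF3A, EIF3J, EIF4A2, EIF4E, EIF4G1 and EIF4EBP2. So were the pathway genes said above to be named after their values were seen. Older symbols, positions and starts came from RefSeq (GRCh38.p14). The labels do not say whether input and Flag-RIP of the same number share a lysate. The correlation of their deviations over genes was -0.10, which cannot decide it, and the main fit used no pairing. Other scalings, pseudocounts, filters, variance models, a replicate block and fits without each library were tried, and the sum of EIF3C and EIF3CL was added after seeing the data.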

Additional observations from a re-analysis of the deposited data

How the results depend on the processing

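The direction of all 33 called members held under both pseudocounts, both variance models, the replicate block and each left-out library and, for those still tested, both filters, and reversals came only with another scaling or with centring after the log. As deposited the counts were 9608 genes higher and 33 lower, 51 members higher and 0 lower; with spike-in scaling 325 and 6339 genes, 0 and 46 members; without the 20 most abundant rows 4452 and 688 genes, 16 and 7 members; with quantile normalization 15 members were lower. With no filter 0 members were higher (limma; 43 of 71 had an unadjusted p under 0.05, against 34.6% of all genes tested there), and at a mean of 5 TPM or more, 1157 genes were higher and 1098 lower, the smaller number of genes tested being part of that choice. With the replicate block 16 members were lower; no other member count moved by over 1.5 times. Without 1 library in turn the counts ranged over 759 to 2035 genes higher, 136 to 1909 lower, 0 to 8 members higher and 0 to 23 lower, and the eIF2B median over -0.66 to -0.43.

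The medians of eIF2, eIF2B, eIF3, eIF4 and eEF1 were 1.33, 0.91, 0.90, 1.22 and 0.83 as deposited, -0.94, -1.32, -1.67, -1.10 and -1.83 with spike-in scaling, and 0.37, -0.0478, -0.23, 0.21 and -0.36 without the 20 most abundant rows. With quantile normalization eIF2, eIF3, eIF4 and eEF1 had -0.0493, -0.28, 0.0893 and -0.0622, and centred after the log 0.0112, -0.42, -0.10 and -0.49. With a pseudocount of 5 eIF2, eIF2B and eIF4 had -0.0734, -0.31 and -0.18. With no filter eIF2 and eIF2B had -0.27 and -0.63, and at a mean of 5 TPM or more, 0.0584 and -0.60. The cause of these moves was not tested.

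As deposited these members lower or not past the threshold had changes above 0: EIF2S2 1.33, EIF2B2 0.63, EIF2B3 0.91, EIF2B4 0.72, EIF2B5 1.00, EIF3B 0.92, EIF3CL 1.19, EIF3D 0.88, EIF3E 0.98, EIF3F 0.63, EIF3G 0.61, EIF3H 1.08, EIF3I 0.41, EIF3K 0.27, EIF3L 0.83, EIF3M 0.84, EIF4A1 1.10, EIF4A3 0.81, EIF4B 1.14, EIF4EBP1 0.0486, EIF1 1.28, EIF2D 0.89, EIF5 0.96, EIF6 0.25, EIF5A 1.70, EEF1A1 1.4975, EEF1A2 0.86, EEF1B2 0.24, EEF1D 0.79, EEF1E1 0.56, EEF1G 0.89, EEF2 1.24 and EEF2KMT 1.18. Scaled to the spike-ins EIF2S3 had -0.38, EIF2AK2 -0.15, EIF2AK3 -0.57, EIF2AK4 -0.24, EIF4G3 -0.28, EEF2K -0.50 and EIF1AD -0.0459. With quantile normalization EIF4B had 0.0371, EIF5A 0.59, EEF1A1 0.86, EEF1D 0.0827, EEF1G 0.23 and EEF2 0.64. EIF5 had 0.0573 without the 20 most abundant rows, and EEF1E1-BLOC1S5 -0.0387 centred after the log. Depth is unknown, so what it limits cannot be given.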
